A study of Mus musculus with 3 samples.

Results

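Epithelial tumour cells cultured for 5 days in collagen I were compared with cells of the same mice cultured for 5 days in Matrigel. The cells compared were those of the day 5 pool with at least 5000 UMIs (unique molecular identifiers, each counted as 1 RNA molecule), at least 1 UMI of Epcam, the epithelial cell adhesion molecule, and 0 UMIs of Tyrobp and Fcer1g, which mark myeloid cells, and of Col1a1 and Col3a1, which mark fibroblasts. They numbered 1065 of the 1196 cells of the day 5 pool and of the 7620 cells of the series, with 967 of 1075 collagen cells and 98 of 102 Matrigel cells passing. Mice 1, 2 and 3 gave 91, 319 and 557 cells in collagen and 12, 49 and 37 cells in Matrigel. Mouse 4 had no cell at day 5 in the deposited cell annotation, although the labels list mice 1 to 4 in that pool.

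The mice carried C3(1)-Tag, a transgene in which the C3(1) promoter drives a viral large T antigen that blocks p53 and Rb, on the FVB strain, and were 25 to 30 weeks old with primary tumours of 20 mm. Tissue was freshly isolated and put into collagen I as organoids or into Matrigel as clusters, and both matrices received DMEM/F12 with ITS, PS and 2.5 nM FGF2. Collagen gels were digested with collagenase at 2 mg/ml on a warm shaker, whereas Matrigel was dissolved with 10 mM EDTA on ice, so the matrix and the way of release cannot be told apart. All cells were then dissociated with TrypLE, given MULTI-seq barcodes that record mouse and matrix, separated from dead cells on a sorter by propidium iodide, and loaded together with 4T1 carcinoma cells grown on plastic. The day 5 pool is 1 library and 1 batch in the labels, and the pools of day 3 and day 0 (12 hours after plating) are the other two. The first time point of the deposited cell annotation was taken as day 0, which is an inference.

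Fibrillar collagen I is the main collagen of the stroma around mammary tumours, and Matrigel is a laminin-rich extract of basement membrane, the sheet on which healthy mammary epithelium rests. Cells bind both through integrins, paired alpha and beta chains that link the matrix to the actin cytoskeleton at focal adhesions. Integrins that contain the alpha-v chain can also release active TGF-beta from its latent form, and TGF-beta signalling through SMAD proteins induces matrix genes and its own inhibitors. Carcinoma cells that invade collagen often hold epithelial keratins together with mesenchymal proteins such as vimentin.

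The 3 collagen sums, each of all UMIs of 1 mouse in 1 matrix, held 5311897 to 29804263 UMIs, and the 3 Matrigel sums 621533 to 3089412 UMIs. The median cell had 54709 UMIs and 7023 genes in collagen and 59578.5 UMIs and 7167.5 genes in Matrigel. The 12 epithelial markers together took 4206 to 7521 CPM (UMIs of a gene relative to a fixed scaled total of its sum, so that sums of different depth can be compared) in collagen and 4379 to 6392 CPM in Matrigel. None of the 12 was called without the mouse as a block, and with it 3 fell in collagen, Cdh1, Cldn7 and Spint2 (adjusted p = 0.0113, 0.0130 and 0.0228). Of the markers of other cells, Adgre1, Rgs5, Cdh5, Emcn, Cd3e, Cd3d and Cd3g were at 0 UMIs in all 6 sums. Others of the same cell types were not at 0. Csf1r, Cd68, Pdgfrb, Pecam1 and Kdr had 73, 212, 79, 22 and 30 UMIs over the collagen sums and 2, 16, 2, 6 and 9 over the Matrigel sums. The macrophage markers summed to 55.8 to 76.5 CPM in collagen and 54.0 to 342 CPM in Matrigel, nearly all of it Cd14, which fell in collagen with the block only (adjusted p = 0.0140; without it 0.0834). The neutrophil markers summed to 67.7 to 241 CPM in collagen and 17.4 to 220.0 CPM in Matrigel, nearly all of it S100a8, and none was called in either fit. The T and NK cell markers summed to 2.88 to 18.0 CPM and 3.47 to 17.4 CPM, all of it Trbc2. Pericyte markers came to 15.1 to 26.7 CPM in collagen and 8.21 to 12.6 CPM in Matrigel, endothelial markers to 6.63 to 11.2 CPM and 3.17 to 9.79 CPM, and dendritic cell markers to 3.55 to 10.9 CPM and 1.45 to 6.33 CPM, with no call in either fit. By correlation with the mean profile of the 4T1 cells, 3 of 967 collagen cells and 0 of 98 Matrigel cells were nearest to that line. The day 5 pool shared 4 cell barcodes with the day 3 pool and 0 with the day 0 pool, and 2 of the cells compared carried such a barcode.

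At day 5, cells in collagen had more RNA of matrix receptors, actin-binding proteins, TGF-beta feedback genes, fibronectin and vimentin than cells in Matrigel. Lower in collagen were the Iroquois factors Irx1 and Irx2, the Wnt antagonist Sfrp1 and the tight junction genes Tjp3 and Marveld3. Of 12608 genes tested with edgeR's quasi-likelihood test, 161 (1.28%) were called at an adjusted p under 0.05, 121 higher in collagen (0.96%) and 40 lower (0.317%). In all 161 the 3 mice of one matrix lay apart from the 3 of the other, against 13.3% of all genes with all collagen sums higher and 9.59% with all collagen sums lower. The 161 were called from these same sums, so their lack of overlap largely follows from the call and is no further evidence. With the mouse as a block, which the shared animals permit, 1001 genes (7.94%) were called, 629 higher (4.99%) and 372 lower (2.95%). The median log2 fold change of all genes tested was 0.0095. Each count of list members called below is to be read against these shares of all genes, and small counts with the block can lie near them. The lists were chosen with earlier results of these data known. Below, a log2 ratio is edgeR's log2 fold change of collagen over Matrigel at day 5, positive where collagen is higher, and its adjusted p is from the fit without the block unless stated. Each SE was derived from the test, as the absolute log2 fold change divided by the square root of its F statistic.

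**Figure D1:**
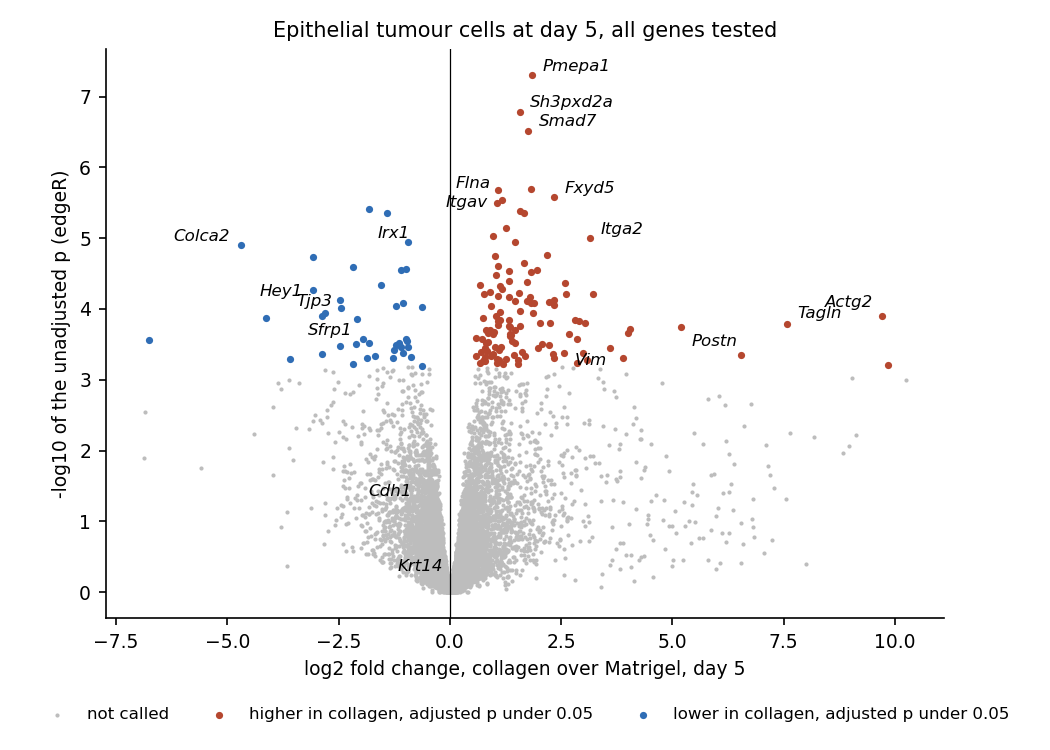
Each point is 1 of the 12608 genes tested, with the log2 fold change of collagen over Matrigel at day 5 on the x axis and the -log10 of the unadjusted edgeR p on the y axis; coloured points passed an adjusted p of 0.05. Pmepa1, Sh3pxd2a and Smad7 have the smallest p-values, and Krt14 and Cdh1 lie among the genes that were not called; fold changes of genes near 0 counts in Matrigel, such as Actg2 and Tagln, depend on the fit.

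The calls rested on few animals. Without mouse 1, 2 or 3, which leaves 2 mice a matrix at day 5, edgeR called 4, 4 and 0 genes, with 992, 1293 and 1007 at an unadjusted p under 0.05. The genes called were Pmepa1, Smad7, Fxyd5 and Card10 without mouse 1, and Pmepa1, Smad7, Sh3pxd2a and Ogfrl1 without mouse 2. Without mouse 4, which enters only on the other days, 451 were called. Of the 161 genes, 56 were followed by name through every alternative, and each kept its direction in every alternative that tested it. Because the sums of these genes did not overlap between the matrices, leaving out a mouse could hardly turn a direction. Of the 56, 3, 4 and 0 were still called without mouse 1, 2 and 3, and 21 with sums of at least 20 cells.

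The receptors by which cells hold matrix gave one of the clearest differences. Of 19 matrix receptor genes tested, 5 rose in collagen and 0 fell, against 0.96% and 0.317% of all genes. With the block 7 rose and 1 fell, against 4.99% and 2.95%. The median log2 fold change of the 19 was 0.68, against 0.0095 for all genes. Itga2, the alpha-2 chain of the collagen receptor integrin, had 96, 163 and 92.6 CPM in collagen in mice 1, 2 and 3, and 7.91, 11.7 and 17.9 CPM in Matrigel. Every collagen sum lay far above the highest Matrigel sum (log2 ratio 3.14 with an SE of 0.54, adjusted p = 0.00845).

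Itgav, the alpha-v chain, had 51.6, 50.1 and 52.4 CPM in collagen and 25.3, 24.6 and 23.2 CPM in Matrigel. The mice of each matrix lay close together, and Itgav was one of the genes with the least spread among those called (log2 ratio 1.08 with an SE of 0.16, adjusted p = 0.00463). Itga5, the alpha-5 chain of the fibronectin receptor, had 18, 14 and 21.1 CPM against 6.33, 2.21 and 2.42 CPM, again without overlap (log2 ratio 2.62 with an SE of 0.52, adjusted p = 0.0182). The surface proteoglycan Sdc1 and the hyaluronan receptor Cd44 were also called. Cd44 had 233, 273 and 269 CPM in collagen and 91.8, 121 and 94 CPM in Matrigel (log2 ratio 1.33 with an SE of 0.25, adjusted p = 0.0130), and Sdc1 had 423, 409.6 and 497 and 207, 203 and 220.4 CPM (log2 ratio 1.07 with an SE of 0.20, adjusted p = 0.0130).

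Not all integrin chains followed. Itga6, the alpha-6 chain of laminin receptors, had 88.6, 143 and 90.0 CPM in collagen and 119, 80.5 and 90.1 CPM in Matrigel, with overlapping groups and a log2 fold change of 0.18 (SE 0.40, adjusted p = 0.933). Itgb1, the beta-1 chain shared by most matrix integrins, had 453, 449.9 and 388 and 324, 232 and 254 CPM and was called with the mouse as a block only (log2 fold change 0.68, adjusted p = 0.0113; without the block 0.172).

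**Figure D2:**
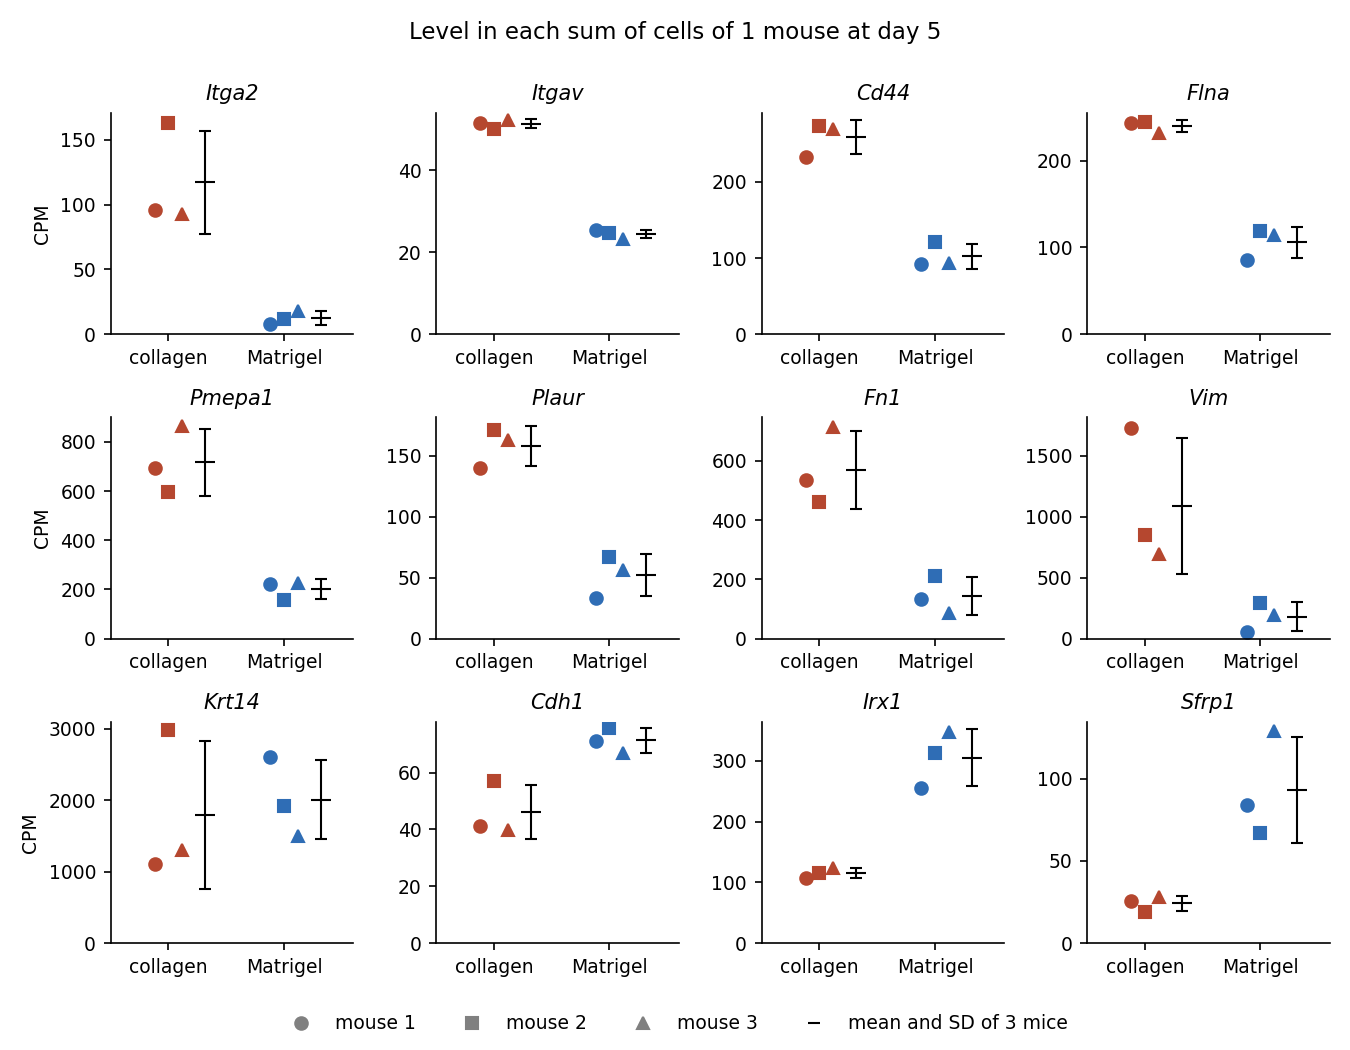
Levels of 12 genes in CPM (y axes, from 0) in the sum of the cells of each mouse at day 5, by matrix, with the mean and SD of 3 mice at the side of each group. Itga2, Itgav, Cd44, Flna, Pmepa1, Plaur, Fn1 and Vim are higher in all 3 collagen sums, Irx1, Sfrp1 and Cdh1 are lower, and Krt14 overlaps.

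Genes inside the cell that join these receptors to actin were higher as well. Of 15 focal adhesion genes, 3 rose and 0 fell, against 0.96% and 0.317% of all genes. With the block 7 rose and 0 fell, against 4.99% and 2.95%, and the median log2 fold change of the list was 0.55. Fermt1, kindlin-1, which activates integrins in epithelium, had 38.9, 61.4 and 49 CPM in collagen and 25.3, 12.9 and 19.9 CPM in Matrigel (log2 ratio 1.46 with an SE of 0.25, adjusted p = 0.00849). Pdlim7 and Tes, LIM proteins of actin fibres and adhesions, rose by smaller amounts (log2 fold changes 0.84 and 0.78, adjusted p = 0.0408 and 0.0453). Src, the kinase that signals at adhesions, lay outside these lists and was picked after its values were seen. It had 33.9, 38.1 and 40.6 CPM in collagen and 11.1, 13.3 and 10.7 CPM in Matrigel (log2 ratio 1.66 with an SE of 0.30, adjusted p = 0.0127).

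Of 27 actin cytoskeleton genes, 8 rose and 0 fell, against 0.96% and 0.317% of all genes. With the block 16 rose and 0 fell, against 4.99% and 2.95%. A positive log2 fold change was found in 26 of the 27, with a median of 0.59. Flna, filamin A, which crosslinks actin, had 243, 245 and 232 CPM in collagen and 85.5, 118 and 114 CPM in Matrigel. The 3 collagen sums were nearly equal and all above the Matrigel sums (log2 ratio 1.16 with an SE of 0.18, adjusted p = 0.00463). Cotl1, which binds actin filaments, had 199, 214 and 161 and 64.9, 62.8 and 64.4 CPM (log2 ratio 1.58 with an SE of 0.25, adjusted p = 0.00463). Tagln2, an abundant relative of transgelin, had 1485, 1439.9 and 1841 and 780.2, 897 and 701 CPM (log2 ratio 1.00 with an SE of 0.18, adjusted p = 0.0110). Cnn2, a calponin of non-muscle cells, had 117, 134 and 94.6 and 61.7, 64.4 and 64.9 CPM (log2 ratio 0.85 with an SE of 0.19, adjusted p = 0.0307). Tmsb4x, thymosin beta-4, which holds monomeric actin, had 2771, 2626 and 1633 and 1348, 522 and 505 CPM and was called with the block only (log2 fold change 1.68, adjusted p = 0.000251; without it 0.0751).

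Sh3pxd2a and Msn, also picked after their values were seen, belong to the same machinery. Sh3pxd2a encodes the scaffold TKS5 of invadopodia, actin protrusions that digest matrix, and had the second smallest p-value of all genes. Its levels were 33, 34.5 and 30.6 CPM in collagen and 9.50, 12.3 and 10.2 CPM in Matrigel (log2 ratio 1.57 with an SE of 0.20, adjusted p = 0.00103). Msn, moesin, which ties actin to the membrane, had 508, 438 and 416 and 154, 167 and 144 CPM (log2 ratio 1.55 with an SE of 0.31, adjusted p = 0.0182). The calpain protease subunit Capn2 had 149, 173 and 214 and 45.9, 68.5 and 50.9 CPM (log2 ratio 1.67 with an SE of 0.27, adjusted p = 0.00463).

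Promoter windows of 3 of the genes higher in collagen are shown because they come from the receptor, actin and protease groups. Each is the RefSeq window on GRCm38.p6 from 250 bases before to 50 bases after the transcript start, on the strand of the gene, with capitals marking a match to the AP-1 motif TGANTCA or to the CArG box, the site of serum response factor.
Itga2 (chr13:114932051-114932350, minus strand): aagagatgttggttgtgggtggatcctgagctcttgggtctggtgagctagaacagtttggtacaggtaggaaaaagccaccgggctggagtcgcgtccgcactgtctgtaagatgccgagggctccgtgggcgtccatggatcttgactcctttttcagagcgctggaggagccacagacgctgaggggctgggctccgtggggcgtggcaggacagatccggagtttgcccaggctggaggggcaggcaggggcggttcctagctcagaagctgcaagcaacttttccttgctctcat
Cnn2 (chr10:79988350-79988649, plus strand): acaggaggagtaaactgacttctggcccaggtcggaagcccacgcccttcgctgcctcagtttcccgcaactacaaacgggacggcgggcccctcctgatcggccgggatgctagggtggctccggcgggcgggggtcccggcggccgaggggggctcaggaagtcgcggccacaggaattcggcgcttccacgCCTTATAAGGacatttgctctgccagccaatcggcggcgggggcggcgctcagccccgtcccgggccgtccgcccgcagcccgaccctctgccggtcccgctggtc
Plaur (chr7:24462233-24462532, plus strand): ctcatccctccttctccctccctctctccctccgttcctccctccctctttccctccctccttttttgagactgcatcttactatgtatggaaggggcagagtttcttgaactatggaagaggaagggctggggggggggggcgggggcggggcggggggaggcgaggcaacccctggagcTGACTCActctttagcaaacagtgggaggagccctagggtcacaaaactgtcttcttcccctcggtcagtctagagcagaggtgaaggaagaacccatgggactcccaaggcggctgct
The Cnn2 window holds 1 CArG match that begins 56 bases before the start, the Plaur window 1 AP-1 match that begins 69 bases before it, and the Itga2 window neither. Both strands were searched. AP-1 matches lay in 6.034% of 116 windows of genes higher in collagen and in 5.442% of 12404 windows of genes tested. CArG matches lay in 3.448% (4 windows) and 1.266%. In the 38 windows of genes lower in collagen the shares were 2.632% for AP-1 and 0.0% for CArG. The TEAD motif (GGAATG) was also searched. It lay in 12.07% of the windows of higher genes, 28.95% (11 windows) of lower genes and 12.08% of genes tested. Cnn2 was picked after its values were seen. The 93 higher genes with a window are not all 121, and these shares are descriptions of letters and not of binding.

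Plaur, whose promoter is printed above, encodes the receptor that holds urokinase, the protease that turns plasminogen into plasmin, at the cell surface. It had 139.8, 171 and 163 CPM in collagen and 33.2, 67.3 and 56.7 CPM in Matrigel (log2 ratio 1.54 with an SE of 0.38, adjusted p = 0.0480). All 6 urokinase system genes tested had positive log2 fold changes (median 1.59). Of the 6, 2 rose without the block, against 0.96% of all genes, and all 6 with it, against 4.99%. Plau, urokinase itself, had 15.6, 20.9 and 15.7 CPM and 7.91, 5.37 and 4.84 CPM (adjusted p = 0.0650, with the block 0.00590).

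The list of matrix proteases and inhibitors showed the same direction with more spread. Besides matrix metalloproteinases and their inhibitors it holds other genes, such as Htra1, Ctsz, Adam12 and Lcn2. None of the 19 genes of the list that were tested was called without the block. With it 8 rose and 1 fell, against 4.99% and 2.95% of all genes, and the median log2 fold change was 1.25. Mmp13, a collagenase, had 106, 42 and 59.3 CPM in collagen and 0, 0.632 and 1.94 CPM in Matrigel. It was near 0 in every Matrigel sum and varied between mice within collagen (adjusted p = 0.0781, with the block 0.0263). Mmp14, the membrane-bound collagenase, had 104, 91.7 and 53.9 and 31.7, 45.8 and 28.6 CPM (adjusted p = 0.206, with the block 0.00163). Mmp9 had 1149 UMIs over the collagen sums and 1 UMI over the Matrigel sums, a pooled ratio of 124 with a 95% counting interval of 22.2 to 4893. That interval covers counting error only and not the spread between mice. In collagen its pooled level was 21.2 CPM but its mean over the 3 sums 13.8 CPM, so the mice did not contribute equally. The one gene of the list that fell with the block was Lcn2, lipocalin-2, a secreted partner of Mmp9.

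Genes of the TGF-beta pathway, its ligands, feedback inhibitors and targets, moved in both directions. Of 19 such genes, 5 rose and 2 fell (with the block 8 and 2), with a median log2 fold change of 0.32. Pmepa1, which dampens TGF-beta signalling by binding SMADs and has the smallest p-value of all genes, lies on chromosome 2, 173224458 to 173276533 (GENCODE vM21, GRCm38). It had 692, 595 and 863 CPM in collagen and 222, 156 and 227 CPM in Matrigel, and the 2 groups lay far apart (log2 ratio 1.84 with an SE of 0.22, adjusted p = 0.000627). Smad7, the inhibitory SMAD, had 95.8, 99.9 and 147 CPM and 25.3, 45.2 and 27.1 CPM (log2 ratio 1.76 with an SE of 0.23, adjusted p = 0.00127).

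Among the ligands, Inhba, which encodes the subunit of activin A, had 293, 317 and 465 CPM in collagen and 161, 87.5 and 108 CPM in Matrigel (log2 ratio 1.62 with an SE of 0.38, adjusted p = 0.0410). Tgfb3 went the other way, with 5.31, 6.58 and 7.29 CPM in collagen and 26.9, 10.7 and 47 CPM in Matrigel (log2 ratio -2.12 with an SE of 0.49, adjusted p = 0.0359). Id2, a helix-loop-helix inhibitor that BMP signals raise and TGF-beta often lowers in epithelium, had 54.8, 90.7 and 92 and 166, 213 and 199 CPM (log2 ratio -1.28 with an SE of 0.31, adjusted p = 0.0435). Both members that fell were thus apart between the matrices in all mice. Ltbp2, a microfibril protein of the latent TGF-beta binding family, had 30.2, 25.8 and 31.9 and 9.50, 12.6 and 11.6 CPM (log2 ratio 1.33 with an SE of 0.29, adjusted p = 0.0270). Of 17 YAP and TEAD genes, 1 rose (Axl) and 1 fell (Wwc1), and with the block 4 rose (Nt5e, Ctgf and Amotl2 in addition) and 1 fell; 11 of the 17 were positive, with a median of 0.27. Ctgf, a canonical target, had 41.7, 85 and 29.3 and 20.6, 13.9 and 3.87 CPM (adjusted p = 0.0709, with the block 0.00866).

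Genes of the mesenchymal state were higher in collagen while the basal keratin Krt14 was not called in either direction. Of 18 mesenchymal genes, 5 rose and 0 fell, against 0.96% and 0.317% of all genes. With the block 8 rose and 0 fell, against 4.99% and 2.95%, and the median log2 fold change of the list was 1.25. Vim, the intermediate filament vimentin, had 1728, 845 and 693 CPM in collagen and 55.4, 291 and 190.3 CPM in Matrigel. Mouse 1 had the highest collagen and the lowest Matrigel level, and the groups did not overlap (log2 ratio 2.57 with an SE of 0.61, adjusted p = 0.0414). Fn1, fibronectin, had 533, 460.1 and 714 CPM and 135, 211 and 86.2 CPM (log2 ratio 1.98 with an SE of 0.46, adjusted p = 0.0375). Axl, a receptor kinase of mesenchymal carcinoma cells, had 134, 122 and 107 and 39.6, 80.5 and 45.5 CPM (log2 ratio 1.09 with an SE of 0.24, adjusted p = 0.0268).

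Snai2, Zeb1 and Twist1, transcription factors that drive the mesenchymal state, were not called in either fit, and Snai2 and Zeb1 were low. Snai2 had 13.8, 12.9 and 2.98 CPM in collagen and 3.17, 5.68 and 9.69 CPM in Matrigel, Zeb1 had 15.9, 8.77 and 1.56 and 0, 4.11 and 0 CPM, and Twist1 had 27.3, 51.8 and 26.2 and 0, 44.2 and 31.5 CPM. In all 3 the groups overlapped (adjusted p from edgeR = 0.896, 0.426 and 0.974). Markers of fibroblasts were also higher in these collagen sums, with a summed level of the 8 markers of 96.3 to 177 CPM in collagen and 42.1 to 67.6 CPM in Matrigel. Pdpn, which carcinoma cells can also express, had 148, 104 and 44.8 CPM in collagen and 38, 61.3 and 37.3 CPM in Matrigel. Col6a3 had 0.569, 1.38 and 36.7 CPM against 0, 0.632 and 0 CPM, so that mouse 3 held nearly all of it. Dcn had 11.4, 2.40 and 5.87 CPM against 0, 0.316 and 0.484 CPM, and Col1a2 had 11.6, 5.46 and 2.55 CPM against 7.91, 1.26 and 0 CPM. Lum, Thy1 and Dpt had 2, 3 and 1 UMIs in collagen in all. Of the 5 markers tested 0 were called without the block, and Col6a3 rose with it (adjusted p = 0.0432). Their part in the mesenchymal difference was not tested.

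Genes of matrix proteins were also higher in the collagen sums, and the part of fibroblast RNA in this was not tested. Of 20 matricellular and matrix genes 4 rose and 0 fell (with the block 9 and 0; median 1.04), and of 15 basement membrane genes 2 rose and 0 fell (with the block 5 and 0; median 0.60). Fbln2, fibulin-2, had 453, 305 and 551 CPM in collagen and 52.2, 123 and 208 CPM in Matrigel (log2 ratio 1.73 with an SE of 0.33, adjusted p = 0.0163). Col7a1, the collagen of anchoring fibrils under epithelium, had 20.9, 19.9 and 15.7 and 6.33, 4.74 and 4.36 CPM (log2 ratio 1.95 with an SE of 0.36, adjusted p = 0.0130). Lama3 and Lamb3, laminin chains of epithelial basement membrane, were higher in each collagen sum and were called with the block only (adjusted p = 0.00352 and 0.00766; without it 0.0507 and 0.111). P4ha1, the enzyme that hydroxylates collagen prolines, had 58.2, 28.5 and 35.2 and 19, 21.5 and 17.4 CPM (log2 ratio 1.05 with an SE of 0.26, adjusted p = 0.0468).

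The smooth muscle genes of myoepithelial cells had large fold changes and, after thinning, were found in few cells. Tagln, transgelin, had 153, 297 and 34.3 CPM in collagen and 0, 1.26 and 0.484 CPM in Matrigel (log2 ratio 7.57 with an SE of 1.64, adjusted p = 0.0263). After each cell was thinned to 5000 UMIs, 46 of 967 collagen cells had a Tagln UMI (4.76%, exact 95% interval 3.50 to 6.29%). Among Matrigel cells it was 0 of 98 (exact 95% interval 0 to 3.69%), and the 2 intervals overlap. Acta2, smooth muscle actin, had a UMI in 66 collagen cells and 1 Matrigel cell, and 40 cells had both genes. Without thinning, the mean share of cells with a Tagln UMI over the 3 mice was 12.2% in collagen and 3.62% in Matrigel, and that with an Acta2 UMI 20.0% and 21.7%, so the order of the Acta2 shares turned. The thinned Acta2 shares of the 2 matrices overlapped (exact permutation p = 0.3). Of the 46 cells with Tagln, 45 also had a Krt14 UMI. A single collagen cell held up to 67 Tagln and up to 78 Acta2 UMIs after thinning.

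In the sums, Acta2 had 195, 481 and 70.7 CPM in collagen and 4.75, 6.0 and 2.42 CPM in Matrigel, a difference called with the block only (adjusted p = 0.000380; without it 0.0834). Actg2, smooth muscle gamma-actin, had 4.17, 25.7 and 1.72 CPM in collagen and 0 UMIs in all 3 Matrigel sums, so its pooled level was at least 20.7-fold higher in collagen, against a floor of 3 UMIs over the Matrigel sums (adjusted p = 0.0242). Myh11, smooth muscle myosin, was also at 0 UMIs in Matrigel and at least 12.5-fold higher (adjusted p = 0.148, with the block 0.0100). Of 17 basal and myoepithelial genes 2 rose and 0 fell (with the block 6 and 1; median 0.54), and the one that fell with the block was the keratin Krt15, which was highest in the Matrigel sum of mouse 2, with 0, 0.102 and 0.0663 CPM in collagen and 0, 22.7 and 2.91 CPM in Matrigel. Postn, periostin, had a similar form, with 45.3, 112 and 26.2 CPM in collagen, 1.58, 2.53 and 0.484 CPM in Matrigel and a UMI in 65 collagen cells and 1 Matrigel cell after thinning, where the shares overlapped (log2 ratio 5.19 with an SE of 1.13, adjusted p = 0.0273). Interval and floor cover counting error only.

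Of the keratins that mark basal and luminal cells, Krt14, Krt5 and Krt8 overlapped between the matrices and the basal keratin Krt17 did not. Krt17 had 471, 1026 and 366 CPM in collagen and 309, 281 and 204 CPM in Matrigel and rose with the block only (adjusted p = 0.0382; without it 0.146). Krt14 had 1106, 2981 and 1297 CPM in collagen and 2597, 1913 and 1502 CPM in Matrigel, Krt5 had 315, 723 and 138 and 532, 491 and 128 CPM, and Krt8, a luminal keratin, had 743, 1140.2 and 836 and 782, 490.5 and 734 CPM. In these 3 the matrices overlapped (adjusted p from edgeR = 0.932, 0.998 and 0.670). Trp63, the basal transcription factor p63, had 27.1, 24.6 and 12.7 and 52.2, 16.7 and 9.69 CPM (adjusted p = 0.997). None of Krt14, Krt5, Krt8 and Trp63 was called with the block either, and the signs for Krt14, Krt5 and Trp63 changed with the settings.

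Some junction and lineage genes were lower in collagen. The epithelial junction list of 27 genes also holds regulators of epithelium, among them Rbm47, Grhl1 and Esrp1. Of the 27, 0 rose and 2 fell, Tjp3 and Rbm47 (with the block 1 and 6), with a median log2 fold change of -0.20. Tjp3, the tight junction protein ZO-3, had 3.22, 4.03 and 4.01 CPM in collagen and 25.3, 7.58 and 31.5 CPM in Matrigel (log2 ratio -2.45 with an SE of 0.51, adjusted p = 0.0206). Rbm47, a splicing regulator of epithelium, had 26.7, 28.1 and 25.7 and 45.9, 46.7 and 76.5 CPM (log2 ratio -1.09 with an SE of 0.20, adjusted p = 0.0130). Cdh1, E-cadherin, had 41.3, 57.1 and 39.8 CPM in collagen and 71.2, 75.8 and 66.8 CPM in Matrigel, lower in all 3 mice, and was called with the block only (log2 fold change -0.63, adjusted p = 0.0113; without it 0.379). Marveld3, a tight junction protein outside that list, had 7.21, 13 and 10.0 and 30.1, 24.9 and 34.9 CPM (log2 ratio -1.54 with an SE of 0.30, adjusted p = 0.0166).

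The Iroquois homeobox genes Irx1 and Irx2 lie next to each other on chromosome 13 and encode transcription factors that pattern epithelia. Irx1 had 107, 116 and 124 CPM in collagen and 255, 313 and 347 CPM in Matrigel, with no mouse in between (log2 ratio -1.41 with an SE of 0.23, adjusted p = 0.00463). Irx2 had 80.8, 96.2 and 85.4 and 163, 166 and 186 CPM (log2 ratio -0.98 with an SE of 0.18, adjusted p = 0.0130). They were the 2 genes called lower among the 16 of the Iroquois and mammary lineage list, of which 0 rose (with the block 0 and 4; median -0.21). Tfap2c, a mammary lineage factor, had 20.9, 19.1 and 18.9 and 52.2, 41.4 and 82.3 CPM and was called with the block only (adjusted p = 0.00914; without it 0.253).

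Single members of the Wnt and Notch pathways fell with them. Sfrp1, a secreted Wnt antagonist, had 25.4, 19.1 and 27.9 CPM in collagen and 83.9, 66.6 and 129 CPM in Matrigel (log2 ratio -1.95 with an SE of 0.44, adjusted p = 0.0339), as 1 of 18 Wnt genes called (with the block 2 rose and 1 fell; median 0.37). Hey1, a Notch target repressor, had 2.84, 2.30 and 4.84 CPM and 41.1, 11.7 and 35.8 CPM (log2 ratio -3.07 with an SE of 0.60, adjusted p = 0.0179), and was the one call among 11 Notch genes (with the block 2 rose and 1 fell; median -0.20). Jag1, a Notch ligand, had 55.2, 66.9 and 30.2 and 19, 16.4 and 15 CPM and rose with the block (adjusted p = 0.00700; without it 0.0970). Of 19 luminal genes none was called without the block (1 rose and 4 fell with it, median -0.32), and Elf5, the alveolar lineage factor, had 10.4, 9.44 and 14.6 CPM in collagen and 83.9, 11.4 and 122 CPM in Matrigel, where mouse 2 lay near the collagen level (adjusted p = 0.208, with the block 0.0128).

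Other genes among the largest decreases had wide spread in Matrigel. Colca2 had 1.33, 2.50 and 1.36 CPM in collagen and 85.5, 42.6 and 15 CPM in Matrigel (log2 ratio -4.70 with an SE of 0.82, adjusted p = 0.00868). Ogfrl1 had 26.7, 25.6 and 24.3 and 198, 28.1 and 310.0 CPM, so that mouse 2 in Matrigel was close to the collagen sums (log2 ratio -2.80 with an SE of 0.59, adjusted p = 0.0231). Egln3, a prolyl hydroxylase that hypoxia induces, had 20.7, 6.33 and 4.18 and 103, 27.8 and 41.7 CPM (log2 ratio -2.46 with an SE of 0.57, adjusted p = 0.0373), but of 24 hypoxia and glycolysis genes only Egln3 fell and only P4ha1 rose (with the block 2 rose and 1 fell; median 0.13).

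Among the largest increases outside the lists, Fxyd5, dysadherin, a membrane protein that weakens cadherin adhesion, had 97.3, 96.8 and 127 CPM in collagen and 41.1, 15.2 and 16 CPM in Matrigel (log2 ratio 2.34 with an SE of 0.36, adjusted p = 0.00463). Cavin2, a caveolar coat protein, had 53.5, 49 and 67.5 and 4.75, 10.4 and 5.33 CPM (log2 ratio 2.91 with an SE of 0.62, adjusted p = 0.0255). Il18r1, a subunit of the interleukin-18 receptor, had 47.2, 77.5 and 76.1 and 17.4, 8.21 and 9.69 CPM (log2 ratio 2.69 with an SE of 0.60, adjusted p = 0.0308). Abcg1, a cholesterol exporter, had 20.3, 25.4 and 36.7 and 1.58, 5.37 and 4.84 CPM (log2 ratio 2.59 with an SE of 0.50, adjusted p = 0.0164). In all of these the lowest collagen sum exceeded the highest Matrigel sum.

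Cell cycle genes showed no call in either fit. The 21 G2 and mitosis genes had a median log2 fold change of -0.26 with 16 of 21 negative, and the 21 S phase genes a median of 0.09. Mki67 had 94.1, 95.5 and 163 CPM in collagen and 114, 124 and 262 CPM in Matrigel, with overlap (adjusted p = 0.517). Mouse 3 had the highest level in both matrices.

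Metabolic lists leaned towards Matrigel by small amounts, with no call without the block. Of 22 cholesterol synthesis genes 20 had a negative log2 fold change (median -0.26), against 6165 of the 12608 genes tested, but 0 were called and only Pmvk, mevalonate pathway kinase, fell with the block. Pmvk had 104, 139 and 126 CPM in collagen and 223, 209 and 207 CPM in Matrigel (adjusted p = 0.0557, with the block 0.0127). Of 23 oxidative phosphorylation genes 20 were negative (median -0.17), 0 were called and 3 fell with the block, against 2.95% of all genes. Of 13 fatty acid synthesis genes 12 were negative (median -0.43), 0 were called and 3 fell with the block, among them Elovl6, a fatty acid elongase, with 63.3, 67.7 and 62.6 and 133, 114 and 102 CPM (adjusted p = 0.104, with the block 0.0304). Apart from metabolism, of 8 milk and secreted protein genes 7 were negative (median -1.42) and 2 fell with the block, Mfge8 and Lcn2.

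Stress and immune lists were split. None of 23 NF-kB genes was called without the block and 3 rose and 3 fell with it, against 4.99% and 2.95% of all genes. The chemokine Cxcl2 had 299.6, 104 and 308 CPM in collagen and 23.7, 24.3 and 8.72 CPM in Matrigel (adjusted p = 0.0715, with the block 0.00165). The metallothionein Mt1 had 976, 826 and 771 and 3004, 1725 and 960.4 CPM, lower in collagen in all 3 mice (adjusted p = 0.0620, with the block 0.00225). Of 21 interferon genes 3 rose with the block, against 4.99% of all genes. Of 19 immediate early genes 1 rose and 0 fell (with the block 3 and 2; median 0.13). Klf4 rose, with 126, 151 and 186 and 77.5, 60.6 and 38.3 CPM (log2 ratio 1.43 with an SE of 0.34, adjusted p = 0.0421), and Fosl1, a partner in AP-1, was called with the block only, with 92.5, 102 and 101 and 15.8, 44.8 and 22.3 CPM (adjusted p = 0.00156; without it 0.0638). Fosl2 also rose with the block, and Zfp36, which destabilises inflammatory mRNAs, and the nuclear receptor Nr4a1 fell with it. Zfp36 had 17.3, 20.1 and 25.7 CPM in collagen and 53.8, 27.5 and 77 CPM in Matrigel (adjusted p = 0.0262 with the block, 0.107 without), and Nr4a1 had 12.3, 8.01 and 12 and 17.4, 17.4 and 48.4 CPM (adjusted p = 0.0322 and 0.183).

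**Figure D3:**
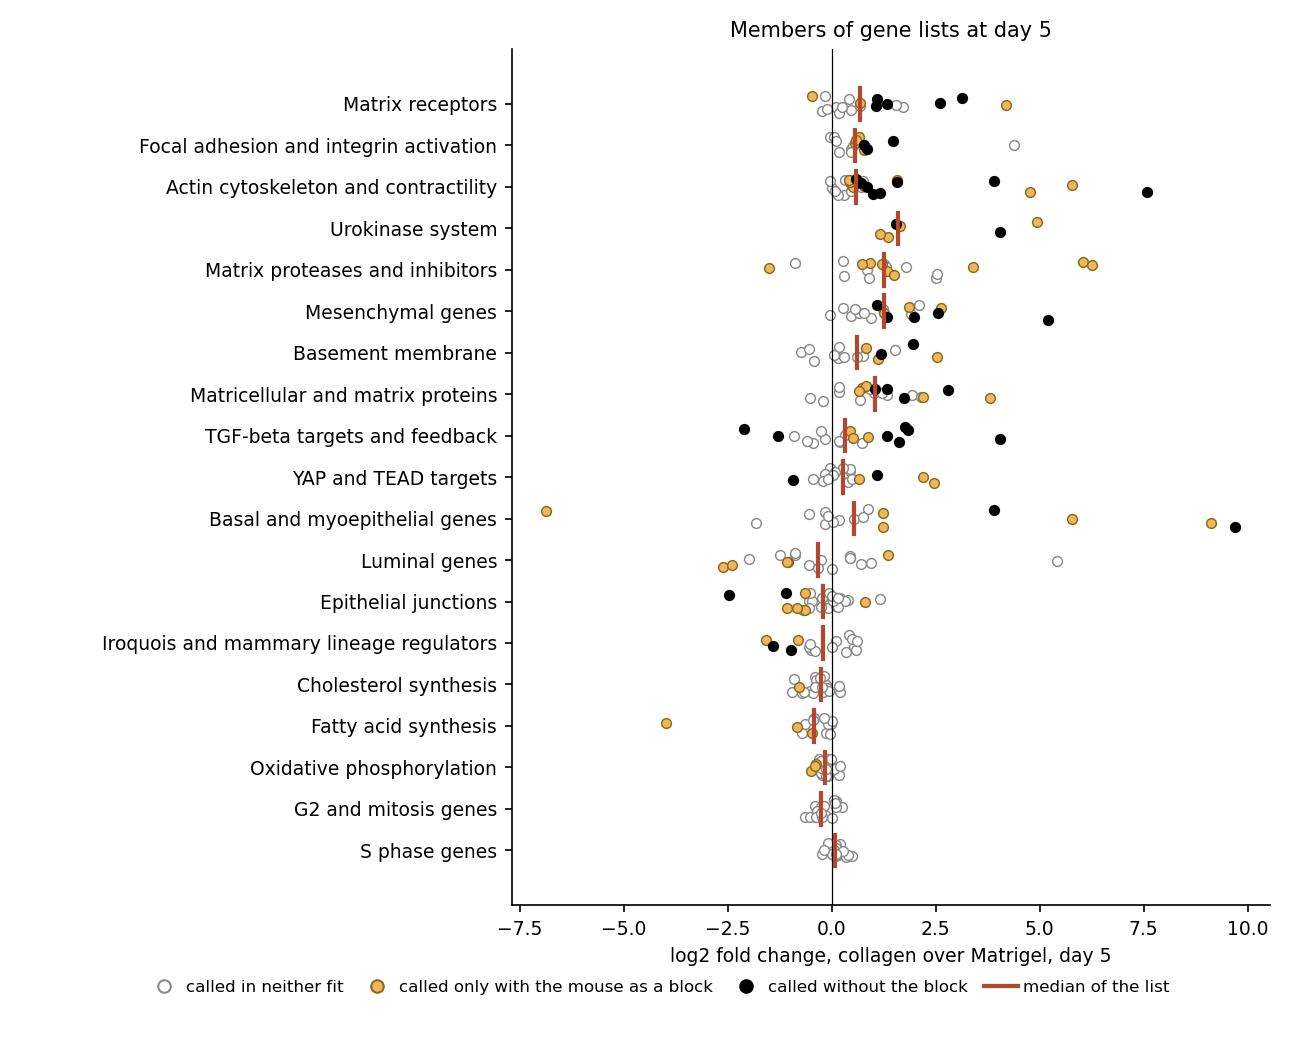
Each point is the fitted log2 fold change of 1 member of a gene list at day 5 (x axis, collagen over Matrigel), by list (y axis), filled black where called without the block and orange where called only with the mouse as a block; red bars are list medians. The adhesion, actin, protease and matrix lists lie to the right of 0, the metabolic lists slightly to the left, and the cell cycle lists hold no filled point.

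Shares of positive cells were compared because Matrigel gave few cells. Each cell was thinned to 5000 UMIs, and 118 shares were compared over the 3 mice of each matrix with an exact two-sided permutation test, which cannot give a p below 0.1, or 0.25 when paired by mouse. In 42 the 3 collagen shares were all higher and in 15 all lower, against 12.8% and 5.02% of all genes tested; the adjusted exact p was 0.207 at the lowest. The genes compared were mostly chosen by their levels in the same cells, so these shares describe the form of the difference and do not add evidence for it.

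Itga2 was found in 33, 32.3 and 26.2% of collagen cells in mice 1, 2 and 3 and in 8.33, 6.12 and 8.11% of Matrigel cells. Fn1 was found in 74.7, 62.4 and 73.8% and 25, 49 and 24.3%. Vim was found in 79.1, 56.1 and 47.9% of collagen cells and 25, 42.9 and 18.9% of Matrigel cells. The share with Vim thus differed most in mouse 1 and least in mouse 2 (each exact permutation p = 0.1, the smallest possible).

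Cells with Vim and Krt14 together made up 52.7, 44.2 and 30.5% of collagen cells and 16.7, 30.6 and 8.11% of Matrigel cells, and the collagen share of mouse 3 fell just under the Matrigel share of mouse 2 (exact permutation p = 0.2). Krt14 alone was found in 71.4, 80.6 and 75.2% and 75, 77.6 and 67.6%, which overlap (exact permutation p = 0.6). Irx1 was found in 33, 38.2 and 43.8% of collagen cells and 66.7, 67.3 and 73% of Matrigel cells (exact permutation p = 0.1). Without thinning, the mean shares were 83.5% and 74.4% for Vim, 60.9% and 21.6% for Itga2, and 95.6% and 96.5% for Irx1. No clean background share could be given, because the 7 cells of the pool with 3 or more Tyrobp and Fcer1g UMIs all carried an Epcam UMI.

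**Figure D4:**
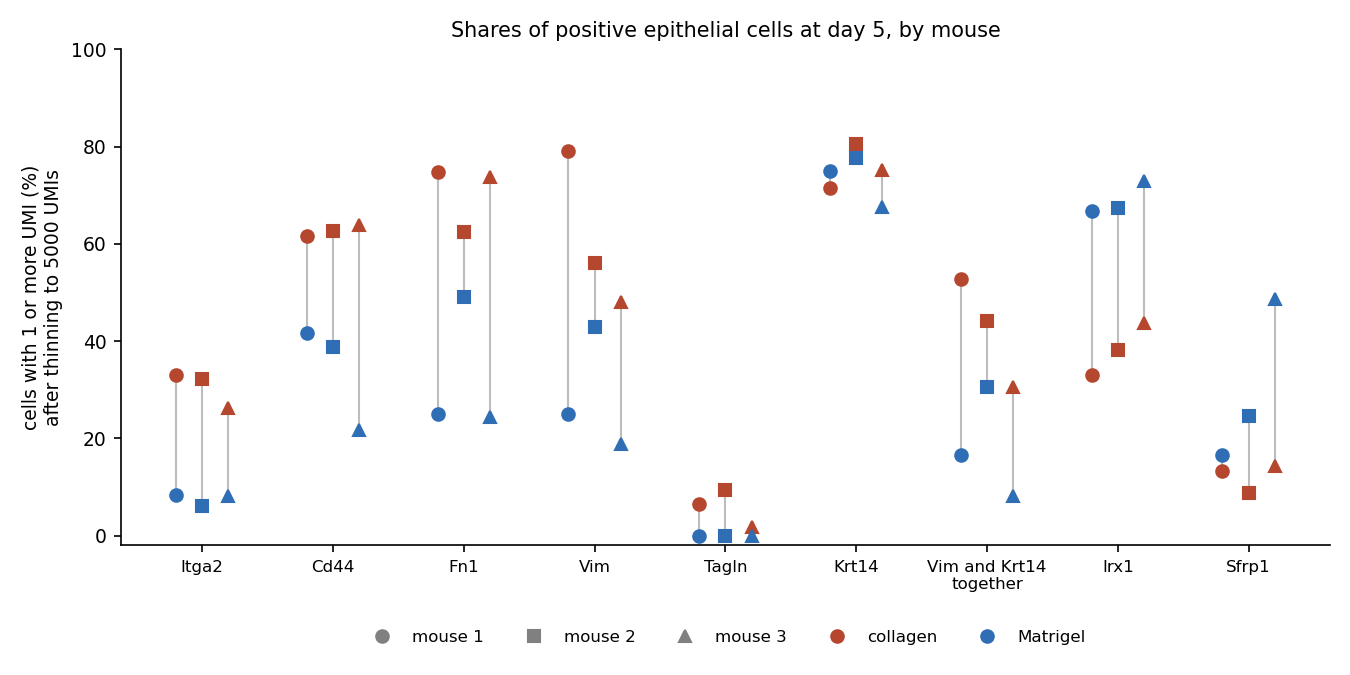
Percent of epithelial cells with 1 or more UMI of a gene after thinning to 5000 UMIs (y axis), by gene (x axis), with 1 symbol per mouse, collagen in red and Matrigel in blue, and a line joining the same mouse. Itga2, Cd44, Fn1, Vim, Tagln and cells with both Vim and Krt14 are more frequent in collagen in each mouse, Irx1 and Sfrp1 less frequent, and Krt14 lies near 70 to 80% in both.

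The requirement for Epcam removed 29 of 1075 collagen cells (2.70%) and 0 of 102 Matrigel cells, which allows a share of up to 2.94%. The 21 of these 29 that also lacked the myeloid and collagen genes had 2157 CPM of Vim, against 859 CPM over the collagen cells kept, and 1370 CPM of Fn1 against 615 CPM. Their Krt8, Krt14 and Cdh1 were low, at 65.7, 80.6 and 1.06 CPM, against 949, 1906 and 46.8 CPM in the cells kept. Itga2 and Pmepa1 were lower in them than in the cells kept (35.0 against 119.7 CPM, and 391 against 762 CPM). They were all from 1 pool and have no replicate test, and without the Epcam requirement edgeR called 164 genes.

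The day 5 difference was set against those of day 3 (2845 cells) and day 0 (1998 cells), which are other pools and batches. No gene had a matrix difference at day 5 that was called different from day 3 (0 of 12608, 0.0%, with edgeR and 0 with DESeq2; 465, 3.69%, at an unadjusted p under 0.05). With the block 2 were called (0.0159%), Mogat1 and Ramp1, which were picked out by this call and had a lower difference at day 5. Against day 0, 367 genes were called (2.91%), 173 higher (1.37%) and 194 lower (1.54%), and 1975 with the block (15.7%). Without mouse 1, 2 or 3 the 367 became 0, 15 and 1, with 1638, 1644 and 1535 at an unadjusted p under 0.05, and the 1 was Dcaf4.

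Several genes higher in collagen at day 5 had a difference near or below 0 at day 0. Itga2 had a log2 fold change of 0.02 at day 0, 0.84 at day 3 and 3.14 at day 5, and the day 5 value exceeded that of day 0 (difference 3.12, SE 0.66, adjusted p = 0.0176). Plaur had -0.80, 0.67 and 1.54 (difference 2.34, SE 0.49, adjusted p = 0.0168). Fn1 had -0.59, 1.12 and 1.98 (difference 2.57, SE 0.60, adjusted p = 0.0219). Hmox1, the heme oxygenase of the oxidative stress response, had -3.17, -0.72 and 0.89 (difference 4.06, SE 0.66, adjusted p = 0.00520); at day 5 its difference was not called.

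Irx1 and Irx2 were not lower in collagen at day 0. Irx1 had log2 fold changes of 0.23, -0.24 and -1.41 on days 0, 3 and 5 (difference from day 0 -1.64, SE 0.30, adjusted p = 0.00838), and Irx2 had 0.38, -0.10 and -0.98 (difference -1.35, SE 0.24, adjusted p = 0.00749). Vim had 1.86, 1.74 and 2.57, and its day 5 difference was not called different from that of day 0 (adjusted p = 0.682). The same held for Lgals1, galectin-1, with 1.48, 0.79 and 1.26 (adjusted p = 0.855). Vim and Lgals1 were thus higher in collagen 12 hours after plating already, at an adjusted p of 0.0289 and 0.00606, on a day when 8.12% of all genes were called.

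**Figure D5:**
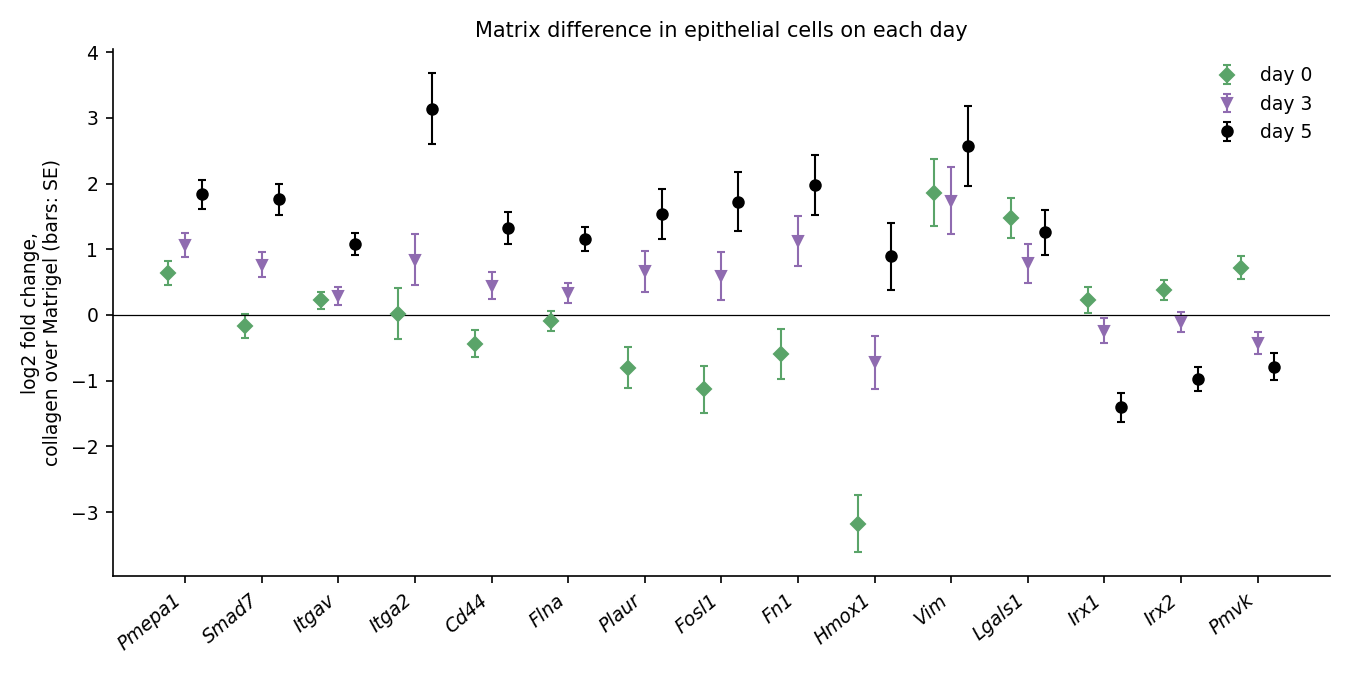
Log2 fold change of collagen over Matrigel (y axis; bars are SE) for 15 genes (x axis) on day 0, day 3 and day 5, from 1 edgeR fit. Itga2, Cd44, Plaur, Fosl1 and Fn1 lie at or below 0 on day 0 and above 0 on day 5, Irx1 and Irx2 cross to below 0, and Vim and Lgals1 are above 0 on all 3 days.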

How the data were processed

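Primary tumour cells were profiled on 10x droplets (3' v2 kit), as the labels' protocols state; the deposited cell annotation holds 3 mice at day 5 and 4 mice on days 0 and 3. In the submitters' processing notes stand the GRCm38/mm10 build and the tools Scanpy 1.4.4 and Cell Ranger 3.0.2, with no step assigned to either. The gene annotation of the authors was not given in the sources used here. Unnormalized UMI counts of every cell were deposited by the authors, and their cell annotation gives day, mouse, matrix, the total count and the mitochondrial fraction of each cell (at most 9.99%). Of 20605 gene identifiers, 20574 matched GENCODE vM21. No doublet caller was run.

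UMIs of all cells from 1 mouse, matrix and day were added up where 10 or more cells existed, yielding 22 sums in 6 groups. Genes passing edgeR's filter (12608) were tested with edgeR 4.0.16 in R 4.3.3: TMM scaling, 1 quasi-likelihood fit (common dispersion 0.0796, with the block 0.0252), Benjamini-Hochberg over all genes, called at an adjusted p under 0.05. CPM are relative to the TMM-scaled total of the genes tested, and fold changes are log2 values, positive for collagen. The same mice were used in both matrices, so the mouse pairs the sums; deviations from group means correlated at 0.29, 0.27 and 0.38 within mice 1, 2 and 3 and at -0.26 to -0.04 between different mice. No 2 replicate sums were copies of one another: their chi-square over its degrees of freedom was 5.12 to 49.7. The mouse is the replicate; nothing in the labels says that tissue of 1 mouse was split into separate cultures per sum.

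Shares used cells thinned to 5000 UMIs (seed 1), with exact permutation tests in SciPy 1.17.1 and exact (Clopper-Pearson) 95% intervals; a count of 0 allows up to 3 counts. Other tools were DESeq2 1.42.0, Python 3.11.15, NumPy 2.4.6, pandas 2.3.3 and matplotlib 3.10.9. Tested on simulated counts of 12357 genes for day 5, edgeR recovered 58% of 100 genes changed 2-fold and 93% of 100 changed 4-fold. The changed genes were drawn only from those above 20 CPM, so recovery at lower levels was not tested. Of the unchanged genes 8 were called. The cells, lists and tests were chosen with earlier results of these data known. The rule for named genes took, from calls with a mean of 20 CPM or more in the higher group and 1 direction in all mice, the 10 that rose most and the 10 that fell most, leaving out predicted, mitochondrial and ribosomal protein genes. It added up to 4 members by smallest p from each list that had a call, or 3 or more calls with the block, and 12 state markers. This gave 117 genes, and 18 more were picked after their values were seen; 3 of these 135 are not reported here. Alternatives varied the scaling, test, filters, block, cells and mice. Genes with close paralogs or overlapping neighbours may share reads and are uncertain. Left out were cells with no matrix among the 2 compared and 0 columns of per-sample values.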

Additional observations from a re-analysis of the deposited data

Results flagged for a closer look

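Of 132 genes followed by name, 39 had a matrix difference (log2 fold change of collagen over Matrigel) at day 5 that differed from that of day 0. The test was edgeR's test of the difference itself, at an adjusted p under 0.05. Over all 12608 genes the share was 2.91%. The 132 were mostly named by their day 5 values, which are part of this difference. A share above that of all genes therefore follows from the choice and adds no evidence. The 2 days are separate pools and batches, and the part of the pool in these changes cannot be told apart from that of time, although both matrices of a day share its pool. In 27 of the 39 the value was higher at day 5. Among matrix receptors and adhesion genes the day 5 minus day 0 difference was 3.12 for Itga2, 0.86 for Itgav, 2.41 for Itga5, 1.09 for Sdc1, 1.76 for Cd44, 1.63 for Src, 0.99 for Pdlim7 and 0.93 for Tes. Among actin, membrane and protease genes the day 5 minus day 0 difference was 1.25 for Flna, 1.79 for Msn, 1.22 for Sh3pxd2a, 1.75 for Capn2, 2.34 for Plaur, 2.33 for Plau and 3.30 for Cavin2. Among TGF-beta, matrix and early response genes the day 5 minus day 0 difference was 1.20 for Pmepa1, 1.93 for Smad7, 1.82 for Inhba, 2.57 for Fn1, 2.86 for Fosl1, 1.36 for Fosl2 and 2.06 for Klf4. Among other genes the day 5 minus day 0 difference was 2.08 for Fxyd5, 2.53 for Abcg1, 2.25 for Acsbg1 and 4.06 for Hmox1. For Actg2 the fitted difference was 10.41, which depends on the fit because Matrigel held 0 UMIs at day 5.

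In 12 of the 39 the value was lower at day 5. Among regulators and junction genes it was -1.64 for Irx1, -1.35 for Irx2, -3.45 for Hey1, -2.82 for Tgfb3, -3.64 for Tjp3 and -1.27 for Rbm47. Among the others it was -5.59 for Colca2, -2.90 for Cracr2b, -1.51 for Pmvk, -1.63 for Mt1, -1.48 for Elovl6 and -1.10 for Fads1. None of the 132 genes differed from day 3 in this fit (adjusted p 0.99997 at the lowest), and leaving out mouse 1, 2 or 3 gave 0, 15 and 1 calls against day 0 over all genes in place of 367. Groups of 3 mice were too small to single out an outlying sum at day 5.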

How the results depend on the processing

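The 161 calls at day 5 became 345 with DESeq2's Wald test, of which 60.87% were higher in collagen against 75.16% of the 161, and 67.5% of 160 with DESeq2 size factors in edgeR. They became 1001 with the mouse as a block and 418 with day 5 sums alone and the block. With sums of at least 20 cells, which drops the Matrigel sum of mouse 1, there were 41, with every sum thinned to the smallest total 64, and with day 5 sums alone but without that Matrigel sum 55, a setting chosen after seeing the data, as was leaving out cells over 100000 UMIs (179). Leaving out 1 mouse at a time gave 0 to 451 calls. No call against day 3 became 2 with the block. The 367 calls against day 0 became 728 with DESeq2, 1975 with the block, 224 with sums of at least 20 cells, 96 with thinned sums, and 0, 15, 1 and 460 without mouse 1, 2, 3 and 4. All other settings gave 133 to 179 calls at day 5, and 55 to 85 shares without overlap against 57.

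Directions changed for genes not called at day 5 and, in the shares without thinning, for Pmepa1. Its mean share was then 99.6% in collagen and 100% in Matrigel, against a difference of 22.2 points after thinning. The log2 fold change of Krt14 was 0.058 with sums of at least 20 cells and 0.065 without the Matrigel sum of mouse 1; that of Twist1 was -0.13 and -0.12 in these settings, and that of Trp63 0.64 and 0.64. With the paired fit by mouse as a block Trp63 was 0.075, and with day 5 sums alone 0.021. Krt5 was -0.00025 with DESeq2, -0.033 with the block on day 5 sums, -0.054 with thinned sums and -0.10 without cells over 100000 UMIs. Share differences in percentage points, without thinning, were -1.61 for Krt14 and -0.37 for Pmepa1; at 2000 UMIs 8.33 for Krt8 and 3.46 for Trp63; for 2 or more UMIs -2.46 for Krt14, 4.66 for Krt8, 0.70 for Trp63 and 6.45 for Itga6; without the Epcam rule -3.66 for Krt14 and 3.41 for Trp63; and without cells nearest to 4T1 -2.85 for Krt14 and 1.19 for Itga6. Without 1 mouse at a time the log2 fold change ranged from -0.77 to 0.33 for Krt14, -0.21 to 0.45 for Itga6, -0.48 to 0.47 for Trp63 and -0.52 to 0.47 for Krt5 (-0.0093 without mouse 3), and the share difference from -10.2 to 3.58 for Krt8, -4.30 to 4.12 for Trp63, -0.45 to 5.30 for Twist1, -0.28 to 5.34 for Krt14 and -7.09 to 1.34 for Itga6. The cause of these changes was not tested. The Matrigel sums, of which that of mouse 1 has 12 cells, limit the precision, and genes under a few CPM rest on single UMIs in Matrigel.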
